A study of Mus musculus with 12 samples.

Results

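The genes described here encode membrane proteins found in complexes with claudin 7: Epcam, Cd44, the tetraspanin genes Tspan8, Cd9, Cd81 and Cd151, and Prom1. They were chosen by name, as the entries of the count table with these gene symbols, which gave 7 of 25861 genes; 7 of these 7 were among the 17025 genes with enough counts to be tested. RNA was sequenced from organoids of MMTV-Neu mouse mammary tumours, in which a viral promoter (MMTV) active in mammary epithelium expresses the oncogene Neu (Erbb2), and the stated question was what Cldn7 does in invasion and metastasis. The organoids had received lentivirus with 1 of 2 short hairpin RNAs against Cldn7 (sh1Cldn7, here hairpin 1, and sh2Cldn7, here hairpin 2) or with a non-targeting hairpin (shControl, here the control), which lowers no intended target. The labels give the genotype as knockdown for the hairpin groups and WT for the control, although the organoids of every group came from MMTV-Neu tumours; the sources used here give neither strain nor age. Virus was used at a multiplicity of infection of 20, organoids of every group then had puromycin (3 µg/ml, 3 days) to select infected cells, and all were kept in fibrillar collagen I with 2.5 nM FGF2 for 5 days. There were 4 libraries a group, numbered 1 to 4, and 12 in all. Nothing in the labels ties the libraries of a group to different animals or cultures, so the p-values reflect only how these samples vary, and that variation may be technical.

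Claudin 7 seals the space between epithelial cells at tight junctions, but much of it lies along the lateral membrane, where EpCAM, an adhesion molecule between epithelial cells, binds it directly. In the intestine EpCAM keeps claudin 7 from being degraded. In rat carcinoma cells EpCAM, claudin 7, the hyaluronan receptor CD44 and the tetraspanin TSPAN8 were found together in membrane microdomains rich in tetraspanins, a family of proteins that cross the membrane several times and gather integrins, proteases and immunoglobulin proteins around them; prominin 1 (CD133) marks membrane protrusions and, in many tumours, cells with progenitor features. These are relations between proteins, and the data here are RNA.

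Epcam and Tspan8 were the members that passed edgeR's test, and the 250 bases before the start of each gene are shown so that the letters before both genes can be compared. They are RefSeq sequences on GRCm38.p6, plus strand, and RefSeq held at least 1 such window for 7 of the 7 members. Capitals mark the E-box letters CACCTG or their reverse complement CAGGTG, to which SNAI and ZEB repressors of epithelial genes can bind.
Epcam chr17:87635729-87635978: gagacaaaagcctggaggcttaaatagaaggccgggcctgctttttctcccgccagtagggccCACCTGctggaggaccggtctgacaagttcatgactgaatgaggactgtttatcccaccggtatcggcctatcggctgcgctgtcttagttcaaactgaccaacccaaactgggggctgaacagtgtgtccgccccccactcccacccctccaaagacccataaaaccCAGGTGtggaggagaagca
Tspan8 chr10:115817034-115817283: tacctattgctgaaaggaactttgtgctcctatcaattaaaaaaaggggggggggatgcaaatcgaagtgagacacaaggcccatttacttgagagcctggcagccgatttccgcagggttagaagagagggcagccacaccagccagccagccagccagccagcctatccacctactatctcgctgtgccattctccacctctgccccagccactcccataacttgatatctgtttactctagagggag
The Epcam window held the E-box at 187 and at 19 bases before the start and the GC box GGGCGG (reverse complement CCGCCC) at 58 bases before it. Among 32851 RefSeq mouse promoter windows, searched on both strands over the 250 bases before the start, 17.2% held the E-box and 32.7% the GC box. The Tspan8 window held neither, nor the letters TATAAA or CCAAT, which 12.4% and 33.8% of windows held. The RefSeq gene begins further upstream, at base 115816817 of chromosome 10, so that the window covers 1 of its start sites. The E-box letters were also found before Prom1, Cd9 and Cd151, which did not pass edgeR's test, and before a start of Cldn7. They were absent before Cd44 and Cd81, and before a further start each of Prom1, Cd151 and Cldn7. The Epcam window and the 1 before a start of Cldn7 held 2 matches each, and the Prom1, Cd9 and Cd151 windows with the letters held 1 each. The part of these letters in the changes was not tested. A match of letters is not a bound site, and no match says nothing about a factor.

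Total counts were 34988358 to 44645514 in the libraries numbered 1 and 2 of each group and 68581024 to 76329473 in those numbered 3 and 4. Libraries with the same number resembled each other across groups: their deviations from the group means correlated at 0.855 to 0.916, against -0.807 to 0.727 for libraries of different numbers. The tests below therefore compare libraries of the same number, with the number in the model. The labelled cell type, primary epithelial cells, was checked against markers. The 12 luminal markers summed to 2421 to 4393 CPM (counts scaled to the library total and composition), and 10 basal markers to 886 to 3681 CPM, over the 12 libraries. The 10 fibroblast markers summed to 228 to 8572 CPM, with Col1a1 from 91.3 to 3220 CPM, so RNA of genes used as fibroblast markers was present beside that of epithelial markers, from cells that were not identified. The 12 leukocyte markers summed to 248 to 373 CPM in libraries numbered 1 and 2 and to 148 to 294 CPM in those numbered 3 and 4. Cd14, the most abundant, had 192 to 264 and 126 to 292 CPM, and the ranges of Cd68 and Cd3e overlapped too. The other leukocyte markers were higher in libraries 1 and 2 without overlap. Ptprc, among them, had 2.18 to 9.21 CPM there and at most 0.179 CPM in libraries 3 and 4.

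Cldn7 (NCBI Gene 53624), the targeted gene, checked the labels. It had 31.1, 30.0, 44.2 and 29.0 CPM in hairpin 1 libraries 1 to 4 and 27.4, 25.4, 34.7 and 26.1 CPM in hairpin 2 libraries, against 144, 136, 186 and 101 CPM in control libraries. Neither hairpin group overlapped the control. Cldn7 RNA fell to 23.8% of control with hairpin 1 (log2 fold change -2.07, SE 0.08) and to 20.3% with hairpin 2 (-2.30, SE 0.08; edgeR's quasi-likelihood test, Benjamini-Hochberg adjusted p = 2.63e-06 and 9.79e-07). The hairpins did not differ past the threshold of 0.05 in Cldn7 itself: hairpin 2 over hairpin 1 was -0.23 on the log2 scale (95% interval -0.41 to -0.05, adjusted p = 0.149).

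The members lay at very different levels. Per kilobase of exon, which allows levels of different genes to be compared, Epcam averaged 537 ± 163 CPM with hairpin 1, 467 ± 105 with hairpin 2 and 596 ± 171 in the control (SD, n = 4 each). In the control, on the same scale, Tspan8 came next at 337 ± 124, then Cd9 at 265 ± 56.0 and Cd81 at 262 ± 55.7 (SD, n = 4 each). Cd151 averaged 80.1 ± 16.6 CPM per kilobase in the control, Cd44 27.0 ± 2.42 and Prom1 10.7 ± 2.98. Epcam exceeded Tspan8 in 12 of 12 libraries, and Cd81 exceeded Cd151, Cd151 exceeded Cd44 and Cd44 exceeded Prom1 in 12 of 12 libraries each. Tspan8 exceeded Cd9 in 7 of 12 libraries and Cd9 exceeded Cd81 in 6 of 12, so these neighbours were not set apart. Dividing by the longest transcript in place of all exons put the middle members in the order Cd81, Cd9, Tspan8. Cldn7 itself averaged 17.2 and 14.6 CPM per kilobase with hairpins 1 and 2, and 72.8 in the control, a level near that of Cd151.

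**Figure D1:**
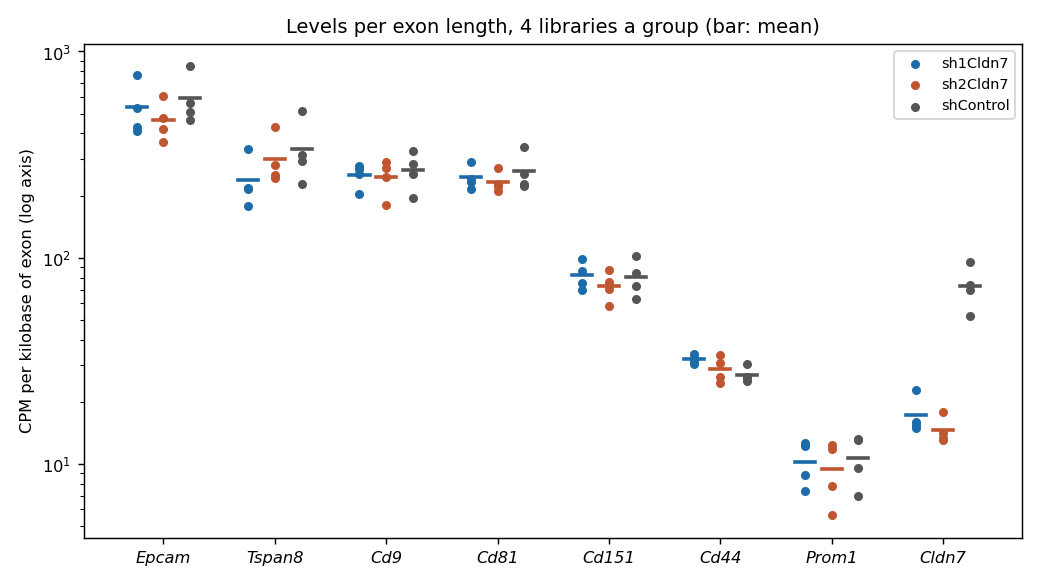
Levels per kilobase of exon (CPM per kilobase, log axis) of the 7 genes and Cldn7, each point 1 library and each bar the mean of 4, with sh1Cldn7 and sh2Cldn7 left of shControl. Epcam lies highest, at a control mean of 596, and Prom1 lowest, at 10.7, while the Cldn7 points of both hairpins lie below those of the control.

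Of the 7 genes, 2 fell and none rose when both hairpins were compared with the control; these were Epcam and Tspan8, where 1.79% of all genes tested changed and 0.946% fell. With hairpin 1 the member that fell was Tspan8 (1 of 7, where 0.728% of all genes changed and 0.347% fell), and with hairpin 2 it was Epcam (1 of 7, where 5.76% changed and 2.93% fell). Cd44, Cd9, Cd81, Cd151 and Prom1 passed edgeR's test in none of the 4 comparisons, while DESeq2 called Prom1 with hairpin 2 (adjusted p = 0.0451) and Cd151 between the hairpins (adjusted p = 0.0119). At an unadjusted p under 0.05, 3 of the 7 members passed for both hairpins, 3 for hairpin 1 and 4 for hairpin 2 in edgeR. At that level 2925, 2176 and 3841 of all 17025 genes passed, and 3414 between the hairpins. The median log2 fold change of the 7 was -0.066 with hairpin 1 and -0.13 with hairpin 2, and -0.12 over both, while the median over all genes was within 0.01 of 0 in each. DESeq2 called 2 members for both hairpins, 1 for hairpin 1, 2 for hairpin 2 and 3 between the hairpins. It called 1161, 607, 1860 and 1436 of all 17025 genes in these comparisons. Without the replicate number in the model edgeR called 0 of 7 members in each of the 4 comparisons, and 1 gene of all 17025 (0.00587%). The unadjusted p was then under 0.05 for 1 member, Cd44 with hairpin 1, where 307 of all genes had such a p. The CPM ranges of a hairpin group and the control overlapped for 7 of 7 members; of all genes, 0.611% lay wholly below the control and 0.576% wholly above it with hairpin 1, and 1.22% and 0.887% with hairpin 2. Both hairpins were compared with the same 4 control libraries, so their values are not independent.

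**Figure D2:**
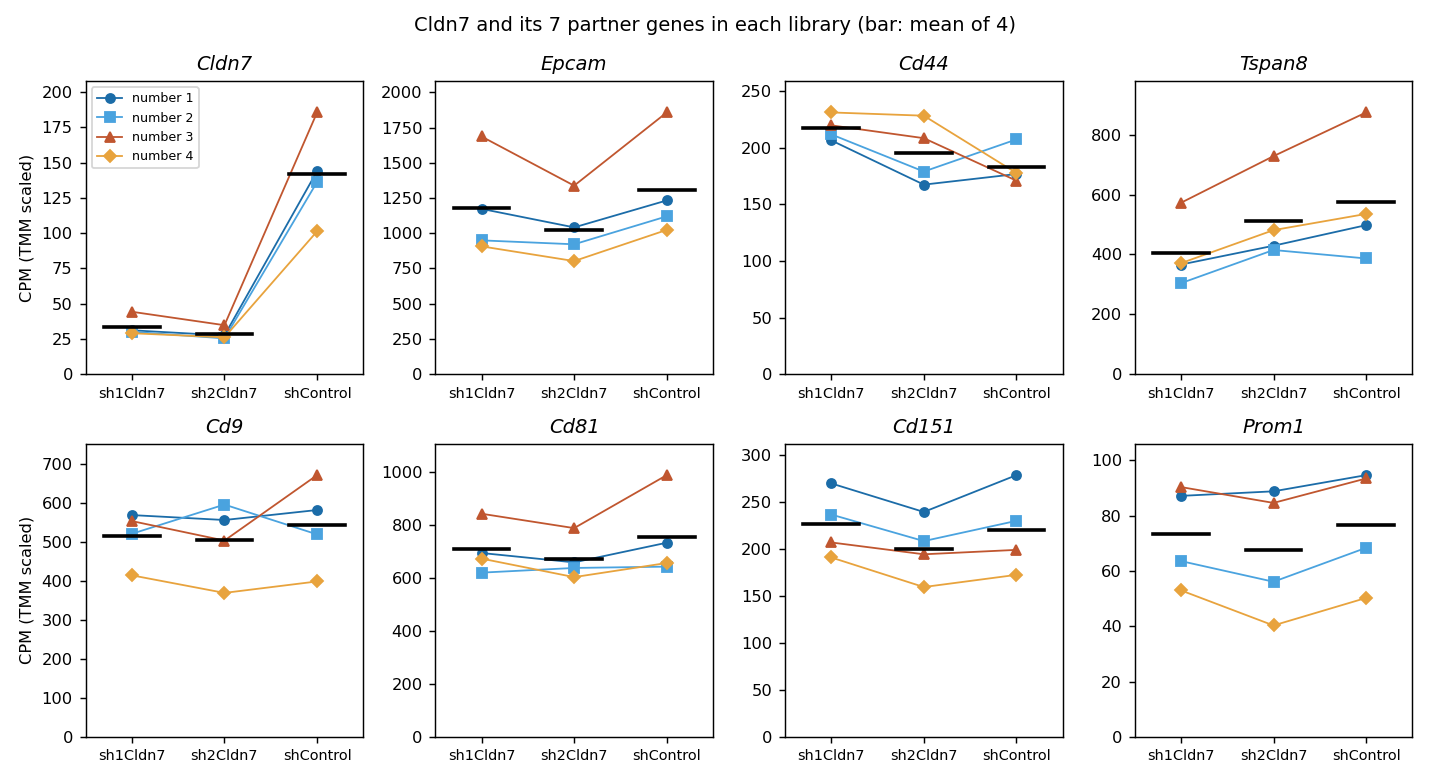
CPM of Cldn7 and the 7 genes in each library, with lines joining libraries of the same replicate number (1 to 4) across sh1Cldn7, sh2Cldn7 and shControl and black bars for the mean of 4. The Epcam lines of all 4 numbers run lower in both hairpin groups than in the control, while the numbers themselves lie further apart than the groups, with Epcam in library 3 of the control at 1857.

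Epcam (NCBI Gene 17075), the adhesion molecule that binds claudin 7 directly, had 1173, 949, 1686 and 907 CPM in hairpin 1 libraries 1 to 4. It had 1041, 921, 1337 and 802 CPM in hairpin 2 libraries, against 1233, 1120, 1857 and 1023 CPM in control libraries. Epcam was lower than in the same-numbered control in 8 of 8 pairs, by 0.072 to 0.47 on the log2 scale, a pattern that 4.28% of all genes showed. The groups still overlapped, since library 1 of hairpin 1 (1173) and of hairpin 2 (1041) lay above control library 4 (1023). Library 3 was the highest of each group. Epcam fell to 79.2% of control with hairpin 2 (log2 fold change -0.34, SE 0.06; edgeR adjusted p = 0.0151) and to 84.3% over both hairpins (-0.25, SE 0.05; adjusted p = 0.0485). With hairpin 1 it stood at 89.8% of control and did not pass (-0.16, 95% interval -0.29 to -0.02, adjusted p = 0.328). In these bulk libraries fewer cells that express a gene and less RNA per cell cannot be told apart. The call over both hairpins was among the weakest, ranked 297 of 304 by p, and was lost on leaving out any control library, any hairpin 1 library, or hairpin 2 library 1 or 4 (adjusted p up to 0.166). The hairpin 2 call was lost without control library 3 (log2 fold change -0.32) or hairpin 2 library 4 (-0.33, adjusted p = 0.0504), and in a fit of hairpin 2 and control libraries alone (adjusted p = 0.124).

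Genes tied to EpCAM were taken as a list of 17, mainly the proteases and inhibitors that act on EpCAM or on claudin 7 beside it and the partners of its cleaved tail in the nucleus. Over both hairpins 0 of 17 passed in edgeR (6 at an unadjusted p under 0.05, 4 in DESeq2), and with hairpin 1 0 of 17 (3 unadjusted, 1 in DESeq2). With hairpin 2, 3 of 17 fell and none rose, where 2.93% of all genes fell. Spint1 (HAI-1), an inhibitor of the protease matriptase, averaged 139 ± 20.6 CPM with hairpin 2 and 170 ± 12.9 in the control (log2 fold change -0.30, SE 0.06, adjusted p = 0.0167). Lef1, a transcription factor of the WNT pathway that joins the EpCAM tail, averaged 26.9 ± 11.4 and 42.0 ± 24.7 CPM (-0.59, SE 0.10, adjusted p = 0.0098). Ncstn, a subunit of γ-secretase, averaged 196 ± 17.6 and 224 ± 19.6 CPM (-0.19, SE 0.04, adjusted p = 0.0341). In each of these, SD is over n = 4 and hairpin 2 comes before the control, with edgeR as the test. The Lef1 call was kept whichever library was left out, and lost in a fit of hairpin 2 and control libraries alone (adjusted p = 0.0823), in libraries 1 and 2 (0.105) and in 3 and 4 (0.124). The Spint1 call was lost without hairpin 2 library 4 (-0.26), and the Ncstn call was lost in all 12 such fits. The list's median log2 fold change was -0.14 with hairpin 2.

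Tspan8 (NCBI Gene 216350), a tetraspanin that in rat carcinoma cells drives motility and vesicle release, had 366, 304, 573 and 371 CPM in hairpin 1 libraries 1 to 4. Hairpin 2 libraries had 429, 415, 729 and 481 CPM, against 498, 387, 875 and 536 CPM in control libraries. With hairpin 1 it was lower than the control in 4 of 4 pairs, by 0.35 to 0.61 on the log2 scale (12.4% of all genes were lower in 4 of 4). With hairpin 2 it was lower in 3 of 4 pairs, library 2 being above its control. Tspan8 fell to 71.4% of control with hairpin 1 (log2 fold change -0.49, SE 0.07; edgeR adjusted p = 0.0131) and to 80.7% over both hairpins (-0.31, SE 0.06; adjusted p = 0.0266). With hairpin 2 it did not pass (-0.13, 95% interval -0.28 to 0.01, adjusted p = 0.265). The call with hairpin 1 was lost on leaving out any hairpin 1 library or control library 1 or 4 (adjusted p up to 0.0780), and the call over both was kept only without control library 2 or hairpin 2 library 2 or 3 (adjusted p up to 0.117 otherwise).

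The hairpins, which target the same gene, differed in Tspan8. It was higher with hairpin 2 than with hairpin 1 in 4 of 4 pairs, by 0.23 to 0.45 on the log2 scale (15.2% of all genes were higher in 4 of 4), at a mean of 514 ± 146 and 403 ± 117 CPM (SD, n = 4 each). The difference was 0.35 (SE 0.07; edgeR adjusted p = 0.0209), and 1 of 7 members passed in this comparison, where 3.44% of all genes did and 1.57% were higher. It was lost on leaving out any hairpin 1 library or hairpin 2 library 4 (adjusted p up to 0.0991). Epcam was lower with hairpin 2 than with hairpin 1 in 4 of 4 pairs (14.5% of all genes were), and did not pass (-0.18, 95% interval -0.32 to -0.04, adjusted p = 0.140). Cd151 stood at -0.18 (95% interval -0.29 to -0.06, adjusted p = 0.0897), Prom1 at -0.16 (-0.31 to -0.02, adjusted p = 0.205) and Cd44 at -0.16 (-0.35 to 0.04, adjusted p = 0.360), hairpin 2 over hairpin 1 in edgeR. DESeq2 called 3 members here, Tspan8, Cd151 (adjusted p = 0.0119) and Epcam (0.0245). Cd9 and Cd81 differed by -0.032 (95% interval -0.23 to 0.16) and -0.072 (-0.21 to 0.067).

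**Figure D3:**
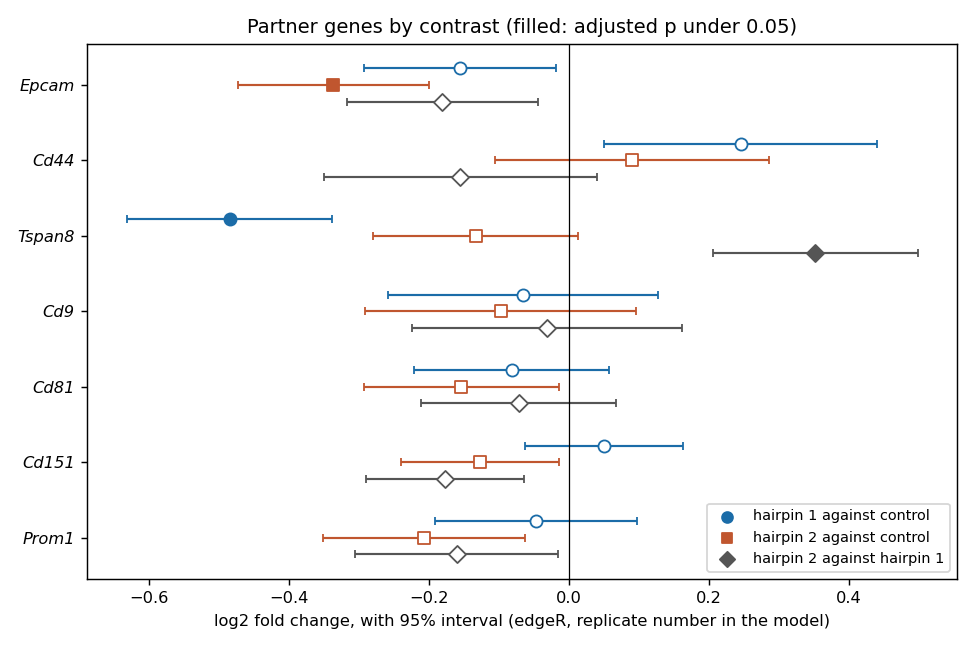
Log2 fold changes of the 7 genes with 95% intervals, from edgeR with the replicate number in the model: hairpin 1 against control, hairpin 2 against control, and hairpin 2 against hairpin 1; filled symbols have an adjusted p under 0.05. The filled symbols are Epcam with hairpin 2 (-0.34), Tspan8 with hairpin 1 (-0.49) and Tspan8 between the hairpins (0.35).

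Cd44 (NCBI Gene 12505), the main receptor for hyaluronan in the matrix, had 207, 212, 220 and 231 CPM in hairpin 1 libraries 1 to 4. It had 167, 179, 208 and 228 CPM in hairpin 2 libraries, against 177, 207, 171 and 178 CPM in control libraries. It was higher than its control in 4 of 4 hairpin 1 pairs (11.2% of all genes were) and in 2 of 4 hairpin 2 pairs, the higher ones being numbers 3 and 4. The log2 fold change was 0.25 with hairpin 1 (95% interval 0.05 to 0.44, edgeR adjusted p = 0.273) and 0.090 with hairpin 2 (-0.11 to 0.28, adjusted p = 0.593), and neither passed. In libraries 3 and 4 alone the log2 fold changes were 0.39 with hairpin 1 and 0.34 with hairpin 2, and in libraries 1 and 2 alone 0.13 and -0.15. Counts per gene add all splice forms, so the CD44 variant forms reported in complexes with EpCAM and claudin 7 cannot be told from the standard form.

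Of 21 genes of CD44 ligands, membrane linkers, splicing factors and proteases, 19 were tested. As a background, 0.84% of all genes rose over both hairpins, and with hairpin 2 2.83% rose and 2.93% fell. Over both hairpins 1 rose, Has2, which makes hyaluronan (log2 fold change 0.67, SE 0.12; edgeR adjusted p = 0.0247). With hairpin 1, 0 of 19 passed in edgeR and in DESeq2 (4 at an unadjusted p under 0.05). With hairpin 2, Has2 rose (23.2 ± 17.3 CPM, against 12.4 ± 10.1 in the control, SD, n = 4 each; 0.93, SE 0.13, adjusted p = 0.0056) and Ezr fell. Ezr encodes ezrin, which ties CD44 and other membrane proteins to actin; it averaged 547 ± 105 CPM with hairpin 2, against 697 ± 113 in the control (-0.36, SE 0.05; edgeR adjusted p = 0.0056). Ezr was also lower with hairpin 2 than with hairpin 1 (-0.37, SE 0.05; adjusted p = 0.0051). The hairpin 2 calls of both genes and the Ezr difference between hairpins were kept whichever library was left out. The Ezr hairpin 2 call was lost in a fit of hairpin 2 and control libraries alone (adjusted p = 0.0861), in libraries 1 and 2 (0.105) and in 3 and 4 (0.213), the Ezr difference between hairpins in libraries 1 and 2 (0.0681) and in 3 and 4 (0.317), and the Has2 hairpin 2 call in libraries 1 and 2 (0.106). Has2 over both hairpins was lost without any 1 control library, hairpin 1 library 1 or 4 or hairpin 2 library 4 (adjusted p up to 0.0972). That call was also lost in libraries 1 and 2 (0.155), in 3 and 4 (0.0859) and with both hairpins as 1 group (0.146). Has2 is abundant in fibroblasts, and Dcn, a fibroblast marker, was also higher with hairpin 2 (43.1 ± 50.6 CPM, against 21.7 ± 24.1 in the control; 1.02, SE 0.17; adjusted p = 0.0113), 1 of 10 fibroblast markers that passed in edgeR (6 at an unadjusted p under 0.05, 3 in DESeq2). All 10 had a positive sign with hairpin 2, at a median log2 fold change of 0.56, against 0.0044 over all genes. Dcn was also higher with hairpin 2 than with hairpin 1 (0.91, SE 0.17; edgeR adjusted p = 0.0222). The fibroblast list summed to 519 to 8572 CPM with hairpin 2, 261 to 4849 with hairpin 1 and 228 to 3933 in the control, with none of its genes at 0 in any library; the part of fibroblasts in these values was not tested.

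Cd9, Cd81 and Cd151 are the broadly made tetraspanins, of which CD9 and CD81 bind immunoglobulin proteins such as PTGFRN and IGSF8, and CD151 holds laminin-binding integrins. Cd9 (NCBI Gene 12527) had 568, 520, 553 and 414 CPM in hairpin 1 libraries 1 to 4 and 556, 595, 503 and 369 CPM in hairpin 2 libraries, against 581, 519, 671 and 398 CPM in control libraries. It was lower than its control in 5 of 8 pairs. The log2 fold changes were -0.066 with hairpin 1 (95% interval -0.26 to 0.13) and -0.098 with hairpin 2 (-0.29 to 0.10), and the sign over both hairpins depended on control library 3, without which it was 0.013. Of the Cd9 exon bases, 10.7% lie under Gm26728 on the other strand, and, since the sources used here do not give the strand setting of the counting, reads there may have been left out or shared.

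Cd81 (NCBI Gene 12520) had 693, 619, 842 and 672 CPM in hairpin 1 libraries 1 to 4 and 658, 637, 787 and 602 CPM in hairpin 2 libraries. Control libraries had 732, 642, 987 and 656 CPM. It was lower than its control in 4 of 4 hairpin 2 pairs (12.7% of all genes were) and in 3 of 4 hairpin 1 pairs, library 4 being the exception. It lay at -0.082 with hairpin 1 (95% interval -0.22 to 0.06) and -0.15 with hairpin 2 (-0.29 to -0.01, edgeR adjusted p = 0.179). Neither passed. Cd151 (NCBI Gene 12476) had 269, 236, 207 and 191 CPM in hairpin 1 libraries and 239, 208, 194 and 159 CPM in hairpin 2 libraries, against 278, 230, 199 and 172 CPM in control libraries. It was below its control in 4 of 4 hairpin 2 pairs (12.7% of all genes were) and above it in 3 of 4 hairpin 1 pairs, at -0.13 (95% interval -0.24 to -0.01, adjusted p = 0.172) with hairpin 2 and 0.050 (-0.063 to 0.16, adjusted p = 0.749) with hairpin 1. Antisense genes cover 3.61% of the Cd81 exon bases and 7.04% of those of Cd151.

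Of 27 other tetraspanin genes 24 were tested, and most did not pass. Among all genes tested, 1.79% passed over both hairpins (0.946% fell), 0.728% with hairpin 1 and 5.76% with hairpin 2. Over both hairpins 2 fell and none rose: Tspan2 (log2 fold change -0.38, SE 0.05; edgeR adjusted p = 0.0101) and Tspan7 (-0.43, SE 0.06; adjusted p = 0.0112). Tspan2 averaged 101 ± 8.07 CPM with hairpin 1 and 100 ± 10.8 with hairpin 2, against 131 ± 10.9 in the control, and fell with either hairpin alone (-0.38, adjusted p = 0.0241, and -0.39, adjusted p = 0.0078). Tspan7 averaged 77.2 ± 19.7, 68.7 ± 19.9 and 97.5 ± 22.7 CPM in hairpin 1, hairpin 2 and control libraries (SD, n = 4 each), and fell with hairpin 2 (-0.52, SE 0.07; adjusted p = 0.0049), while hairpin 1 stood at -0.34 (adjusted p = 0.0721). Tspan11 was sparse, at 2.65 ± 3.07 CPM with hairpin 1, 4.73 ± 4.56 with hairpin 2 and 2.52 ± 2.54 in the control, and rose with hairpin 2 (0.98, SE 0.20; adjusted p = 0.0242). It was also higher with hairpin 2 than with hairpin 1 (1.11, SE 0.20; adjusted p = 0.0192). The hairpin 2 calls of Tspan2 and Tspan7 were kept whichever library was left out, and were lost in libraries 1 and 2 (adjusted p = 0.156 and 0.0550) and in 3 and 4 (0.0746 and 0.110); that of Tspan2 was also lost in a fit of hairpin 2 and control libraries alone (0.0695). The calls over both hairpins were lost in libraries 1 and 2 (Tspan2 0.112, Tspan7 0.101) and in 3 and 4 (0.118 and 0.178). That of Tspan7 was also lost with both hairpins as 1 group (0.0593). The hairpin 1 call of Tspan2 was lost in both sets (0.143 and 0.522). With 1 library left out, the calls over both hairpins were lost without control library 4, and without control library 1 (Tspan2) or 3 (Tspan7), at adjusted p up to 0.0578. The hairpin 1 call of Tspan2 was lost in 7 of 12 such fits, among them without any hairpin 1 library or control library 1, 3 or 4 (up to 0.149). The Tspan11 calls were each lost in 4 of 12 such fits: the first without control library 1, 3 or 4 or hairpin 2 library 1, the second without hairpin 1 library 1, 2 or 3 or hairpin 2 library 1.

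Among 14 integrins and immunoglobulin proteins bound by tetraspanins, Itgb3 and Itga5 passed. The share of all genes that passed was 1.79% over both hairpins, 5.76% with hairpin 2 and 3.44% between the hairpins. Itgb3, the β3 subunit that pairs with αv as a receptor for vitronectin and other matrix proteins, averaged 286 ± 41.1 CPM with hairpin 2, 415 ± 41.2 with hairpin 1 and 505 ± 88.5 in the control (SD, n = 4 each). It fell with hairpin 2 (log2 fold change -0.82, SE 0.09; edgeR adjusted p = 0.0019) and over both (-0.55, SE 0.07; adjusted p = 0.0101), and was lower with hairpin 2 than with hairpin 1 (-0.54, SE 0.09; adjusted p = 0.0103). The first of these calls held in libraries 1 and 2 alone and in 3 and 4 alone. The call over both was lost in each of these sets (adjusted p = 0.0826 and 0.132) and with both hairpins as 1 group (0.204), and the difference between hairpins was lost in each set (0.0644 and 0.233) and without hairpin 1 library 3 (-0.52, adjusted p = 0.0556). Itga5, the fibronectin receptor subunit α5, rose with hairpin 2 (46.1 ± 32.6 CPM, against 27.8 ± 22.2 in the control; 0.91, SE 0.23; adjusted p = 0.0453), a call lost in 9 of 12 fits that each left out 1 library. The exceptions were the fits without control library 2 and without hairpin 2 library 2 or 3. Of 8 pericyte and endothelial markers tested, 2 also rose with hairpin 2, Pdgfrb (log2 fold change 0.67, SE 0.11; edgeR adjusted p = 0.0110) and Cspg4 (0.74, SE 0.18; adjusted p = 0.0405), and Pdgfrb rose over both hairpins (0.47, SE 0.10; adjusted p = 0.0496). For comparison, 2.83% of all genes rose with hairpin 2 and 0.84% over both hairpins. Of the 8 markers, 6 had a positive sign with hairpin 2 and 2 a negative sign. Those 2 were Cdh5 (-0.42, edgeR adjusted p = 0.809) and Notch3 (-0.14, adjusted p = 0.266), the most abundant of the list. The 9 pericyte and endothelial markers summed to 165 to 405 CPM with hairpin 2, 158 to 362 with hairpin 1 and 159 to 334 in the control. The endothelial genes Cdh5 and Emcn were at 0 in at least 1 library. The part of these markers in the Itga5 value was not tested. With hairpin 1, 0 of 14 passed in edgeR (4 at an unadjusted p under 0.05, 1 in DESeq2). The laminin-binding integrin genes Itga3, Itga6 and Itgb4, partners of CD151, were in the list and did not pass in any of the 4 comparisons.

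Prom1 (NCBI Gene 19126), which encodes prominin 1, had 87.1, 63.6, 90.3 and 53.0 CPM in hairpin 1 libraries 1 to 4 and 88.8, 56.1, 84.6 and 40.3 CPM in hairpin 2 libraries. Control libraries had 94.6, 68.3, 93.4 and 50.2 CPM. It was lower than its control in 4 of 4 hairpin 2 pairs (12.7% of all genes were) and in 3 of 4 hairpin 1 pairs. The log2 fold change was -0.047 with hairpin 1 (95% interval -0.19 to 0.098) and -0.21 with hairpin 2 (-0.35 to -0.06, edgeR adjusted p = 0.0960). Hairpin 2 did not pass in edgeR and passed in DESeq2 (adjusted p = 0.0451). Of 7 genes linked to prominin 1, 1 fell with hairpin 2, its paralogue Prom2, at 69.0 ± 15.0 CPM, against 97.8 ± 31.3 in the control (-0.47, SE 0.07; edgeR adjusted p = 0.0071), and this call was kept whichever library was left out but lost in a fit of hairpin 2 and control libraries alone (adjusted p = 0.0710) and in libraries 1 and 2 (0.134). Prom2 averaged 92.1 ± 29.9 CPM with hairpin 1, and was lower with hairpin 2 than with hairpin 1 (-0.38, SE 0.07; adjusted p = 0.0201), a call lost without any 1 hairpin 1 library or hairpin 2 library 4 (adjusted p up to 0.0967). Over both hairpins 0 of 7 passed in edgeR (1 at an unadjusted p under 0.05, 1 in DESeq2), and with hairpin 1 0 of 7 in either tool (1 unadjusted). In edgeR 2.93% of all genes fell with hairpin 2, and 1.87% were lower with hairpin 2 than with hairpin 1.

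In the EpCAM list, in the comparison between the hairpins, 1 of 17 was higher with hairpin 2 and 2 were lower. There, 1.57% of all genes were higher and 1.87% lower. Adam10, a protease that sheds the outer part of many membrane proteins, averaged 196 ± 24.3 CPM with hairpin 2 and 157 ± 25.4 with hairpin 1 (log2 difference 0.32, SE 0.06; edgeR adjusted p = 0.0141). Spint1 differed by -0.25 (SE 0.06; adjusted p = 0.0435) and Lef1 by -0.43 (SE 0.10; adjusted p = 0.0419). The Adam10 call was lost without hairpin 1 library 1, 2 or 3 (adjusted p up to 0.0732); that of Spint1 was kept only without control library 3 or 4 or hairpin 2 library 1, and that of Lef1 only without control library 2, 3 or 4 or hairpin 2 library 3. In a model with no replicate number, each call of these list genes was lost. Fits of the compared groups alone also lost the hairpin 2 calls of Spint1 (adjusted p = 0.123), Ncstn (0.202), Tspan11 (0.0735) and Itga5 (0.177), and the differences between hairpins of Spint1 (0.0694) and Tspan11 (0.0552).

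**Figure D4:**
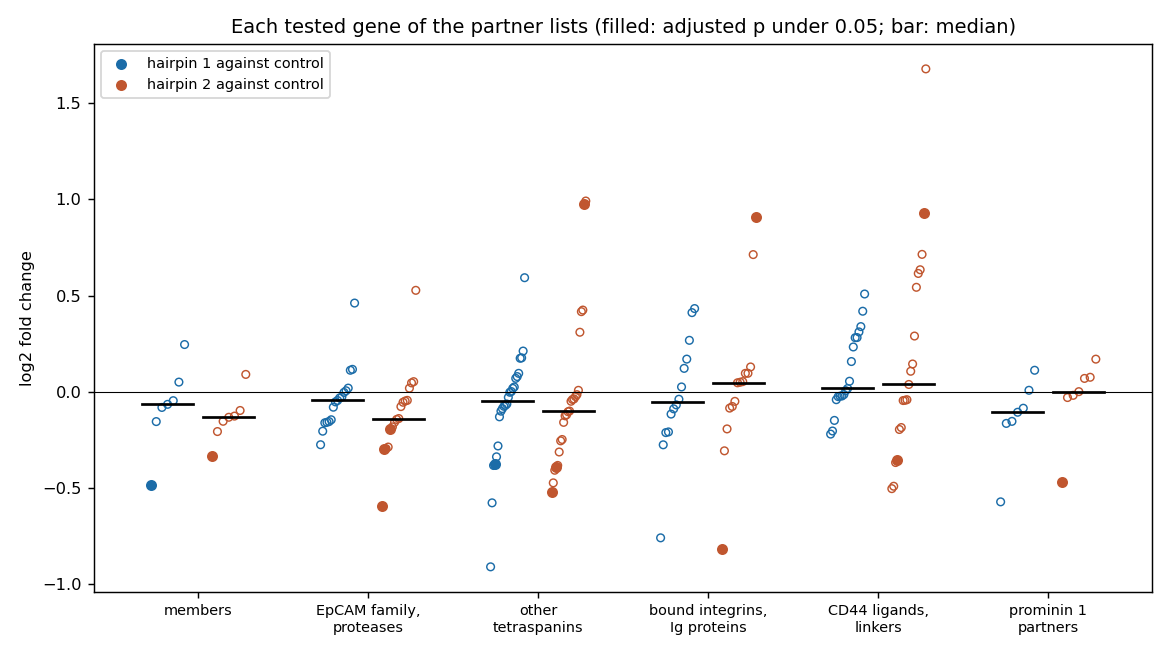
Log2 fold change of each tested gene of the 7 partner genes and the 5 lists, for hairpin 1 and hairpin 2 against the control; filled points have an adjusted p under 0.05 and bars are medians. Most points are open and lie around 0, with filled points for hairpin 2 at -0.82 (Itgb3), 0.93 (Has2) and 0.98 (Tspan11).

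The replicate number accounted for most of the variation of the members other than Cd44. This was not particular to them. Over all genes tested, the biological coefficient of variation, a measure of spread between libraries, was 0.141 with the number in the model and 0.648 without. The number took 82.3% of the variance of log2 CPM for Epcam, 73.9% for Tspan8, 82.0% for Cd9, 82.7% for Cd81, 87.2% for Cd151 and 92.4% for Prom1. Some share arises by chance, and the share over all genes was not computed. For Cd44 the share was 20.5%, and for Cldn7, the targeted gene, 4.85%. Libraries 3 and 4 averaged 1.49 times the Tspan8 CPM of libraries 1 and 2, and 0.768 times the Cd151 CPM. The Tspan8 ratio came mostly from library 3, at 573, 729 and 875 CPM in hairpin 1, hairpin 2 and control. Library 4 had 371, 481 and 536 CPM, and library 1 had 366, 429 and 498 CPM. Within each group, the counts of libraries 1 and 2 were the closest pair (chi-square per degree of freedom 54.0 to 65.7). The other pairs, 3 and 4 among them, lay at 372 to 605. Depth and the leukocyte markers other than Cd14, Cd68 and Cd3e also differed between libraries 1 and 2 and libraries 3 and 4. Their part in the levels was not tested. With the mean of each number removed, log2 CPM over the 12 libraries correlated at 0.88 between Cd9 and Cd81 and 0.80 between Epcam and Cd81. It correlated at 0.75 between Cd151 and Prom1, 0.71 between Epcam and Prom1, -0.80 between Cd44 and Tspan8 and 0.23 between Epcam and Tspan8. With the differences between numbers kept in, r was 0.57, 0.95, 0.68, 0.79, -0.32 and 0.71 for these pairs in the same order. These 12 points share scaling factors, hairpins and numbers and are not independent, and the values describe these libraries.

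With the mean of each number again removed, among 12427 genes whose mean CPM was 2 or more, the genes most like Epcam were Fbxl2 (r = 0.98), Asl (0.97) and Chchd5 (0.97). Those most like Tspan8 were Hycc2 (r = 0.98), Nup54 (0.97) and Slc30a5 (0.96), and those most like Cd44 included Bnip2 and Tsku (r = 0.96 each). For Cd9 they were Rpl35a (r = 0.95), Slc31a2 and Chmp5 (0.94 each), and for Cd81 Rnaset2a (0.98), Mrpl15 (0.97) and Ntan1 (0.97). For Cd151 the closest were Tifa, Clta and Gstp1, and for Prom1 Atp6v1b2, Mgrn1 and Rabgef1. With the differences between numbers kept in, Fbxl2 and Hycc2 no longer followed Epcam and Tspan8 (r = -0.17 and -0.18), and Asl and Slc30a5 still did (r = 0.95 and 0.92). On that scale r was 0.21 for Nup54 with Tspan8, 0.43 for Tsku with Cd44, 0.28 for Slc31a2 and for Chmp5 with Cd9, and -0.19 and -0.15 for Rnaset2a and Ntan1 with Cd81. It was 0.60 for Tifa and 0.47 for Clta with Cd151, and at most 0.13 for the 3 genes named with Prom1.

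Epithelial markers were set beside the members that fell. Of 12 luminal markers 0 passed over both hairpins in edgeR (3 at an unadjusted p under 0.05, 1 in DESeq2), 0 with hairpin 1 (4 and 0) and 0 with hairpin 2 (5 and 3). The most abundant, the keratins Krt8 and Krt18, stood at -0.041 and -0.091 with hairpin 2 and at 0.10 and 0.049 with hairpin 1, none past the threshold. Others lay further from 0 with hairpin 2 without passing: Krt19 at 1.02 (adjusted p = 0.0692), Pgr at 1.57 (0.0524) and Gata3 at -0.35 (0.0563). Between the hairpins 1 of 12 passed, Kit, a receptor of luminal progenitors, which was higher with hairpin 2 (419 ± 101 CPM, against 329 ± 107 with hairpin 1; log2 difference 0.38, SE 0.06; edgeR adjusted p = 0.0139). Between the hairpins 3.44% of all genes passed. The luminal sums were 2421 to 4278 CPM with hairpin 1, 2528 to 4393 with hairpin 2 and 2590 to 4181 in the control. Of 10 basal markers, 6 rose and none fell with hairpin 2, where 2.83% of all genes rose and 2.93% fell. Among the 6 were Cnn1 (2.49, SE 0.33, edgeR adjusted p = 0.0039) and Myh11 (2.03, SE 0.32, adjusted p = 0.0083), genes of the contractile apparatus. Both were sparse in the control, at 3.41 ± 2.60 and 7.80 ± 4.18 CPM (SD, n = 4 each). The more abundant keratins Krt14 (0.70, adjusted p = 0.144), Krt5 (1.14, 0.0617) and Krt17 (0.69, 0.326) did not pass, nor did Oxtr (-0.36, 0.237). The median log2 fold change of the 10 was 1.07, and 9 had a positive sign, while Epcam fell. With hairpin 1, 0 passed (5 at an unadjusted p under 0.05, 2 in DESeq2; median 0.47), and over both hairpins 3 rose (median 0.76). Over both hairpins 0.84% of all genes rose. The basal sums were 1203 to 3407 CPM with hairpin 1, 1978 to 3436 with hairpin 2 and 886 to 3681 in the control. Leukocyte markers passed in none of the 4 comparisons in edgeR (0, 1, 0 and 2 of 12 at an unadjusted p under 0.05 for both hairpins, hairpin 1, hairpin 2 and hairpin 2 against hairpin 1; 0, 0, 0 and 1 in DESeq2). The part of the basal markers in the fall of Epcam with hairpin 2 was not tested.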

How the data were processed

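RNA sequencing gave 12 libraries, 4 each with sh1Cldn7, sh2Cldn7 and shControl. The authors deposited raw read counts per gene, 1 column a library, with NCBI Gene number and symbol. Build mm10 and the tools Trimmomatic 0.39, FastQC 0.74 and DESeq2 1.34.0 are named, per the submitters' processing notes, with no role; the sources used here do not give the aligner, annotation or strand setting. Of the 25861 genes, filterByExpr by group kept 17025. Counts were TMM-scaled and tested with edgeR 4.0.16 (quasi-likelihood, group and replicate number, 12 libraries); p-values were adjusted by Benjamini-Hochberg over the 17025 genes, at a threshold of 0.05; the script was tested on simulated data. CPM use the same scaling, and log2 CPM a prior count of 2. Intervals of fold changes are 95%, from the moderated t distribution.

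Replicate numbers come from the titles, and 12 of 12 libraries were nearest to their own number, so the blocked model leads; the biological coefficient of variation was 0.141 with and 0.648 without the number. Exon lengths come from GENCODE M21 (GRCm38), and promoters from RefSeq. Other settings were DESeq2 1.42.0 (Wald test), its size factors, no filter, no replicate number, each library left out, numbers 1 and 2 or 3 and 4 alone, pairwise fits and both hairpins as 1 group. The members and lists were chosen with earlier results of these data known. Named genes were the members, Cldn7, each list gene past the threshold in a comparison, leading cell type markers, and the 3 genes most like a member. Itga3, Itga6, Itgb4, Dcn, Cspg4, Cdh5, Emcn, Krt19, Pgr, Gata3, Kit, Cnn1, Myh11, Krt17, Oxtr, Cd68 and Cd3e were named after their values were seen. Some genes that this rule or the lists hold are not reported here.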

Additional observations from a re-analysis of the deposited data

Results flagged for a closer look

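Among the 24 combinations of gene and group screened (the 7 genes and Cldn7 in 3 groups), 1 library stood far from its group. Cldn7 in hairpin 1 library 3 had 44.2 CPM, and its gap to the next library was 0.863 of the whole range of the group, above the critical value of Dixon's test for 4 libraries; chance gives this in about 1 in 20 groups. Library 3 was also the highest in Cldn7 in the hairpin 2 and control groups. Tspan8 differed between hairpins against the same gene, by 0.35 on the log2 scale for hairpin 2 against hairpin 1 (edgeR adjusted p = 0.0209), higher in 4 of 4 pairs.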

How the results depend on the processing

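With no replicate block edgeR called 1 gene in each of the 4 comparisons and 0 members, with Epcam over both hairpins at -0.25 and Tspan8 at -0.33 (adjusted p = 1.00 each). With both hairpins as 1 group, 48 genes and 0 members passed (Epcam -0.24, Tspan8 -0.30). Libraries 1 and 2 alone gave 25, 9, 82 and 84 genes for both hairpins, hairpin 1, hairpin 2 and hairpin 2 against hairpin 1, and libraries 3 and 4 alone 5, 1, 327 and 42, each with 0 members; over both hairpins Epcam was then -0.21 and -0.26, and Tspan8 -0.23 and -0.37. DESeq2 called 1161, 607, 1860 and 1436 genes, with 2 members for hairpin 2 and 3 between the hairpins. Fits of the compared groups alone gave 390 genes for hairpin 1, and 97 genes and 0 members for hairpin 2.

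Leaving out each library gave 39 to 554 genes and 0 to 2 members over both hairpins, 2 to 344 and 0 to 1 for hairpin 1, 342 to 1076 and 0 to 1 for hairpin 2, and 165 to 672 and 0 to 1 between the hairpins. Epcam over both ranged from -0.27 to -0.22 and Tspan8 from -0.37 to -0.26. Signs turned for values that did not pass: Cd9 when a library was left out (over both -0.14 to 0.013, hairpin 1 -0.13 to 0.032, between hairpins -0.12 to 0.036) and in libraries 1 and 2 (over both 0.026, hairpin 2 0.064, between hairpins 0.076), Cd44 in libraries 1 and 2 (over both -0.010, hairpin 2 -0.15), and in libraries 3 and 4 Cd151 over both (0.034) and Prom1 with hairpin 1 (0.034). As log2 CPM stands, r turned to -0.168 (Epcam and Fbxl2), -0.183 (Tspan8 and Hycc2), -0.194 and -0.155 (Cd81 with Rnaset2a and Ntan1) and -0.00739 (Prom1 and Mgrn1). The cause of these changes was not tested. Fits of part of the libraries also had fewer libraries. Size factors and no filter changed no member call.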
